A study of Mus musculus with 44 samples.

Results

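RNA of whole liver nuclei was compared between 3 mice with advanced and 4 mice with mild steatohepatitis, all fed the FPC diet, which takes its name from fructose, palmitate and cholesterol. The libraries were chosen by their labels: whole liver nuclei, FPC diet, and the histology group advanced (mice Advanced_6826, Advanced_6880 and Advanced_6904) or mild (mice Mild_6825, Mild_6886, Mild_6887 and Mild_6888). They are 7 of the 44 libraries of the series. All genes entered, and 14129 of the 20105 identifiers in the count table passed the expression filter and were tested.

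Every mouse in the series was male and of the HEP-INTACT line, whose hepatocyte nuclei carry a tag by which they can be pulled out of a suspension of liver nuclei. The promoter that drives the tag and the age of the mice are not given in the sources used here. Advanced and mild mice ate the FPC diet for 20 weeks, and 4 control mice ate a low-fat diet over that period. A second experiment used 7 weeks of a choline-deficient high-fat diet with defined amino acids (CDAHFD), with 3 advanced, 4 mild and 4 low-fat control mice. Diet-fed mice were assigned to advanced or mild from the histology of their livers, so the groups were not randomised. By the series design, steatosis and inflammation were above controls in both groups, with fibrosis the feature that set the advanced livers apart. Whole liver nuclei were not selected by the tag and hold nuclei of all liver cell types. A lower value of a gene can therefore come from fewer cells of a type or from less RNA per cell, which cannot be told apart in these libraries.

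In fibrosis of the liver, hepatic stellate cells, the retinoid-storing pericytes of the sinusoids, take on a myofibroblast state and lay down collagens, elastic fibre proteins and the enzymes that crosslink them. Scarring is commonly accompanied by a ductular reaction, in which cells with bile duct genes multiply or appear, by capillarisation of the sinusoidal endothelium, and by replacement of resident Kupffer cells with macrophages derived from monocytes. Hepatocytes around the central vein and around the portal vein express different enzymes, and many of their detoxification genes also differ between the sexes under the pattern of growth hormone secretion.

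The advanced libraries held 21.3, 24.4 and 29.1 M counts, and the mild libraries 14.3 to 33.1 M counts. Each library is a separate mouse. Levels below are CPM (counts per M counts of a library, its total scaled by the trimmed-mean method, TMM), given in the order of the mice above, and are not corrected for gene length. The first principal component of the 11 FPC whole liver libraries held 72.1% of the variance and placed advanced mice at -58.5 to -69.7, mild mice at -9.85 to -16.4 and controls at 57.7 to 64.9. One mild library stood apart: counts of mouse Mild_6825 differed from those of the other mild mice with a chi-square per degree of freedom of 143 to 242, where the other mild mice differed among themselves by 20.9 to 28.9 and the advanced mice by 52.9 to 79.6. Values without mouse Mild_6825, or without another single mouse, are given beside results that they change, and where several mice end a call, the one that gave the highest adjusted p is named. Over all 14129 genes tested, mouse Mild_6825 was above the other mild mice in 5112 genes. Mouse Advanced_6880 was above the other advanced mice in 5566. The liver cell types that the labels imply were found by their markers: hepatocyte markers summed to 7620 to 10800 CPM in advanced and 9630 to 12700 CPM in mild livers, and defining markers of stellate, endothelial, Kupffer, bile duct and lymphoid cells were all present. Of the marker genes, Ly6g of neutrophils alone had 0 counts in all 7 libraries, and 5 of 8 neutrophil markers were too low to test.

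Advanced livers differed from mild livers in 3150 genes at an adjusted p under 0.05 (edgeR's quasi-likelihood test, adjusted over all tested genes after Benjamini and Hochberg), which is 22.3% of those tested. Of these, 1881 were higher in advanced livers (13.3% of genes tested) and 1269 were lower (8.98%). The counts of list members below are to be read beside these shares. At least 2-fold changes numbered 1069 higher and 281 lower. In 2946 of the 3150 genes the values of advanced and mild mice did not overlap, as was also so for 4430, or 31.4%, of all genes tested. The median log2 fold change of all genes tested was -0.02. Without the scaling factors, which ran from 1.11 to 1.22 in advanced and from 1.0 to 1.07 in mild libraries, that median was 0.13 and the split became 2636 higher and 670 lower, so that 79.7% rather than 59.7% of calls were higher. The number of calls ranged from 1956 without mouse Advanced_6880 to 3729 without mouse Mild_6825, and no gene called here was called in the opposite direction under any of the 17 alternatives. Genes called higher were long, with a median length of 44.3 kb, and genes called lower had a median of 31.9 kb, against 26.1 kb for all genes tested.

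Structural collagens and their crosslinkers were higher in advanced livers. Of 17 collagen genes tested, 12 rose and none fell, with a median log2 fold change of 1.02 (14 rose and 2 fell without mouse Mild_6825), and of 26 matrix glycoproteins and crosslinking enzymes 21 rose and none fell, with a median of 1.03. Col6a3, a chain of the beaded-filament collagen VI, had 223, 190 and 170 CPM in advanced livers, against 43.7, 47.2, 46.1 and 76.5 CPM in mild livers. The lowest advanced value was above the highest mild value, and the log2 fold change was 1.86 ± 0.18 (SE; adjusted p = 3.4e-05). Col1a1, which encodes the main chain of collagen I, stood at 91.6, 51.1 and 40.9 CPM in advanced and 19.9, 12.8, 25.1 and 25.2 CPM in mild livers, a log2 fold change of 1.56 ± 0.31 (adjusted p = 0.0037). Its partner chain Col1a2 (98.5, 57.3 and 47.7 against 29.4, 17.4, 29.1 and 32.6 CPM) and Col3a1 of collagen III (274, 145 and 122 against 80.5, 51.6, 85.8 and 96.9 CPM) were arranged in the same way. For these 3 fibrillar chains the groups did not overlap, but mouse Advanced_6826 was well above the other advanced mice, whereas Col6a3 and Col15a1 were nearly level across the advanced mice. Col15a1, a basement membrane collagen, had 69.2, 60.6 and 58.9 CPM in advanced and 16.2, 19.6, 20.9 and 25.5 CPM in mild livers (1.61 ± 0.14, adjusted p = 1.5e-05). Col5a2, which copolymerises into collagen fibrils, rose by 1.0 ± 0.12 (adjusted p = 0.00012). The collagens that did not pass were Col5a1, Col5a3, Col12a1, Col14a1 and Col18a1.

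Among the glycoproteins and crosslinkers, Loxl1, an enzyme that crosslinks elastin, had 11.2, 11.5 and 11.6 CPM in advanced livers, against 2.08, 3.24, 2.98 and 3.69 CPM in mild livers (log2 fold change 1.94 ± 0.21, adjusted p = 4.9e-05). Ltbp2, a microfibril protein, had 21.6, 24.2 and 27.6 CPM in advanced and 4.74, 3.97, 6.20 and 6.28 CPM in mild livers (2.20 ± 0.21, adjusted p = 2.6e-05). Both genes were flat across the advanced mice and separated from every mild mouse. Fbn1, which encodes the microfibril backbone fibrillin-1, changed less, with 93.8, 89.2 and 77.5 CPM in advanced and 49.0, 40.3, 44.9 and 50.5 CPM in mild livers (0.91 ± 0.11, adjusted p = 9.4e-05). Lum and Thbs2, both secreted matrix glycoproteins, had log2 fold changes of 1.81 ± 0.31 and 1.69 ± 0.21. Fibronectin is also secreted by hepatocytes, and Fn1 did not pass: its log2 fold change was -0.25 ± 0.17 (adjusted p = 0.34), with overlapping values. The list held 15 members called higher without mouse Advanced_6826 and 23 without scaling factors.

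Matrix proteases and their inhibitors were called higher in 14 of 19 genes and lower in none (median 1.10), and 10 were called higher without mouse Advanced_6880. Mmp7, or matrilysin, a protease known from bile duct epithelium, had 8.28, 7.99 and 9.18 CPM in advanced livers, against 0.996, 0.198, 0.149 and 0.405 CPM in mild livers. Its log2 fold change was 4.10 ± 0.40 (adjusted p = 3.4e-05), and even the highest mild value, that of mouse Mild_6825, was far below the advanced values. In the tagged hepatocyte nuclei of the same mice Mmp7 averaged 12.7 CPM in advanced and 0.292 CPM in mild disease. Adamtsl2, a secreted protein that binds microfibrils, had 83.9, 72.8 and 71.1 CPM in advanced and 10.7, 17.4, 19.0 and 22.9 CPM in mild livers (2.12 ± 0.21, adjusted p = 3.3e-05). Plat, the tissue plasminogen activator, had 6.34, 5.90 and 5.48 CPM in advanced and 1.45, 1.39, 1.39 and 1.66 CPM in mild livers (2.0 ± 0.18, adjusted p = 2.4e-05). Mmp2, a gelatinase, had 15.8, 17.0 and 16.7 CPM in advanced and 3.47, 4.23, 5.41 and 6.56 CPM in mild livers (1.75 ± 0.21). These 3 genes were nearly level across the advanced mice, and in mild mice Adamtsl2 and Mmp2 varied more. Timp1, an inhibitor known as a fibrosis marker, was less secure: it was below 1 CPM in every mouse (1.10 ± 0.33, adjusted p = 0.031) and missed the threshold when any 1 advanced mouse was left out, up to an adjusted p of 0.080.

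The largest rise on the log2 scale was that of Gldn, which encodes gliomedin, a protein with an olfactomedin domain known from the nodes of peripheral nerves. It had 21.9, 25.9 and 28.9 CPM in advanced livers, against 0.151, 0.331, 0.446 and 0.324 CPM in mild livers and a mean of 0.439 CPM in controls. The log2 fold change was 6.41 ± 0.60 (adjusted p = 3.2e-05), and the ratio of summed counts, 2264 in advanced and 27 in mild libraries, was 89.4 with a 95% counting interval of 61.3 to 136. The groups were far apart, and mild livers were within the control range of 0 to 1.10 CPM. In the tagged hepatocyte nuclei of the same mice Gldn averaged 41.9 CPM in advanced and 0.506 CPM in mild disease.

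The promoters of Gldn and Mmp7, the 2 genes whose advanced livers were most sharply separated from low mild levels, are shown with those of Col1a2, a fibrillar collagen chain that rose, and Cyp2e1, a hepatocyte enzyme that fell and is described further on. The sequences are from RefSeq (build GRCm38.p6), run 5′ to 3′ on the gene's strand from 250 bases before the start to 50 after it, and have in capitals each CCAAT box (CCAAT), AP-1 motif (TGANTCA), TEAD motif (GGAATG) and TATA box (TATAAA) found on either strand.
Gldn: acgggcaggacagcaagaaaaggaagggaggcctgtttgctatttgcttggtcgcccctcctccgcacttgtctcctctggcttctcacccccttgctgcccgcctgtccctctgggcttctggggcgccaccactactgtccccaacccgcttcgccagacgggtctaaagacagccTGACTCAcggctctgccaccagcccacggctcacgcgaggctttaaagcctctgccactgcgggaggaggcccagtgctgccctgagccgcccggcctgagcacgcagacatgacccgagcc
Mmp7: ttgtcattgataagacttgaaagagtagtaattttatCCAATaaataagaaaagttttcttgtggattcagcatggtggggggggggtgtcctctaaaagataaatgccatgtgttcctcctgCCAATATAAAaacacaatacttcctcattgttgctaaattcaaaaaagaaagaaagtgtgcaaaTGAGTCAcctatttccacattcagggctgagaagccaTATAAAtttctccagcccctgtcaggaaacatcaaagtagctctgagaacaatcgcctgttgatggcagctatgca
Col1a2: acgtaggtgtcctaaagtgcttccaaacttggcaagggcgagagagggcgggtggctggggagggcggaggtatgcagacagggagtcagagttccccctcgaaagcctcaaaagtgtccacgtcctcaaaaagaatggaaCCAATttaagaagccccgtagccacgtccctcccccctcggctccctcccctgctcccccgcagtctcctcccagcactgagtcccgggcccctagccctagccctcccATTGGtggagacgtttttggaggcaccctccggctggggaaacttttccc
Cyp2e1: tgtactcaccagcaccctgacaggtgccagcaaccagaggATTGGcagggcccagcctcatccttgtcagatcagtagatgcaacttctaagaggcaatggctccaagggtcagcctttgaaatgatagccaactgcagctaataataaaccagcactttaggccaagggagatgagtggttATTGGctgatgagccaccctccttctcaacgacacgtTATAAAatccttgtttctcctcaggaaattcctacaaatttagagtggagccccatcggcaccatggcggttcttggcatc
All 4 genes are on the plus strand, at chr9:54286236-54286535 for the Gldn promoter, chr9:7691840-7692139 for that of Mmp7, chr6:4505368-4505667 for that of Col1a2 and chr7:140763569-140763868 for that of Cyp2e1. An AP-1 motif began 72 bases before the start of Gldn and 63 bases before that of Mmp7. The Mmp7 promoter also had TATA boxes 123 and 26 bases and CCAAT boxes 213 and 127 bases before the start, 1 of each overlapping. Another start of Mmp7, not shown, had 1 CCAAT box and none of the other motifs. The Col1a2 promoter had CCAAT boxes 109 bases before the start and at the start itself, and that of Cyp2e1 had a TATA box 31 bases before the start with CCAAT boxes at 210 and 68 bases on the other strand. AP-1 motifs were in 6.90% of the 1840 promoters of genes called higher, 6.21% of the 1273 promoters of genes called lower and 5.67% of the 13886 promoters of genes tested (7.81% of all 32851 in the table). TATA boxes were in 8.26%, 9.35% and 7.79% of the same 3 sets (13.6% of all), TEAD motifs in 13.6%, 13.5% and 12.6% (14.7% of all), and CCAAT boxes in 32.7%, 42.6% and 37.1% (37.4% of all). These matches describe letters in the window and were not tested.

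Markers of activated stellate cells and myofibroblasts were higher in 9 of 15 genes and lower in none (median 1.10). Of these 9, all but Cygb are also counted in the collagen, matrix glycoprotein or protease lists above. The summed level of the markers was 343 to 641 CPM in advanced, 155 to 260 CPM in mild and 58.6 to 74.3 CPM in control livers. Markers of stellate cells in general were mixed, with 6 of 18 higher and 2 lower (median 0.44) and overlapping sums of 545 to 794 CPM in advanced and 577 to 734 CPM in mild livers. Pdgfra, a receptor for platelet-derived growth factor, had 49.6, 49.0 and 43.8 CPM in advanced livers, against 14.5, 13, 13.2 and 18 CPM in mild livers (1.69 ± 0.14, adjusted p = 9.3e-06). Pdgfrb, the receptor that marks pericytes, had 65.1, 65.5 and 67.6 CPM in advanced and 24.0, 30, 32.8 and 34.6 CPM in mild livers (1.12 ± 0.12, adjusted p = 4.4e-05). Cygb, the stellate cell globin, rose in the same manner (18.3, 16.4 and 14.2 against 3.53, 4.30, 4.86 and 5.87 CPM). All 3 were clear of the mild range. Ntm, a cell adhesion protein, went the other way, with 25.6, 13.4 and 21.0 CPM in advanced and 127, 85.6, 114 and 98.6 CPM in mild livers (-2.41 ± 0.27, adjusted p = 7.6e-05), as did the collectin Colec10 (7.90, 0.876 and 2.13 against 41.4, 22.3, 30.3 and 26.3 CPM). Acta2, the smooth muscle actin used to stain myofibroblasts, had 7.60, 5.19 and 4.47 CPM in advanced and 7.39, 3.57, 4.61 and 14.5 CPM in mild livers and did not pass (-0.41 ± 0.43, adjusted p = 0.56); without mouse Mild_6888 its estimate was 0.12. Lrat, which esterifies retinol for storage, had overlapping values as well (0.18 ± 0.29, adjusted p = 0.72).

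**Figure D1:**
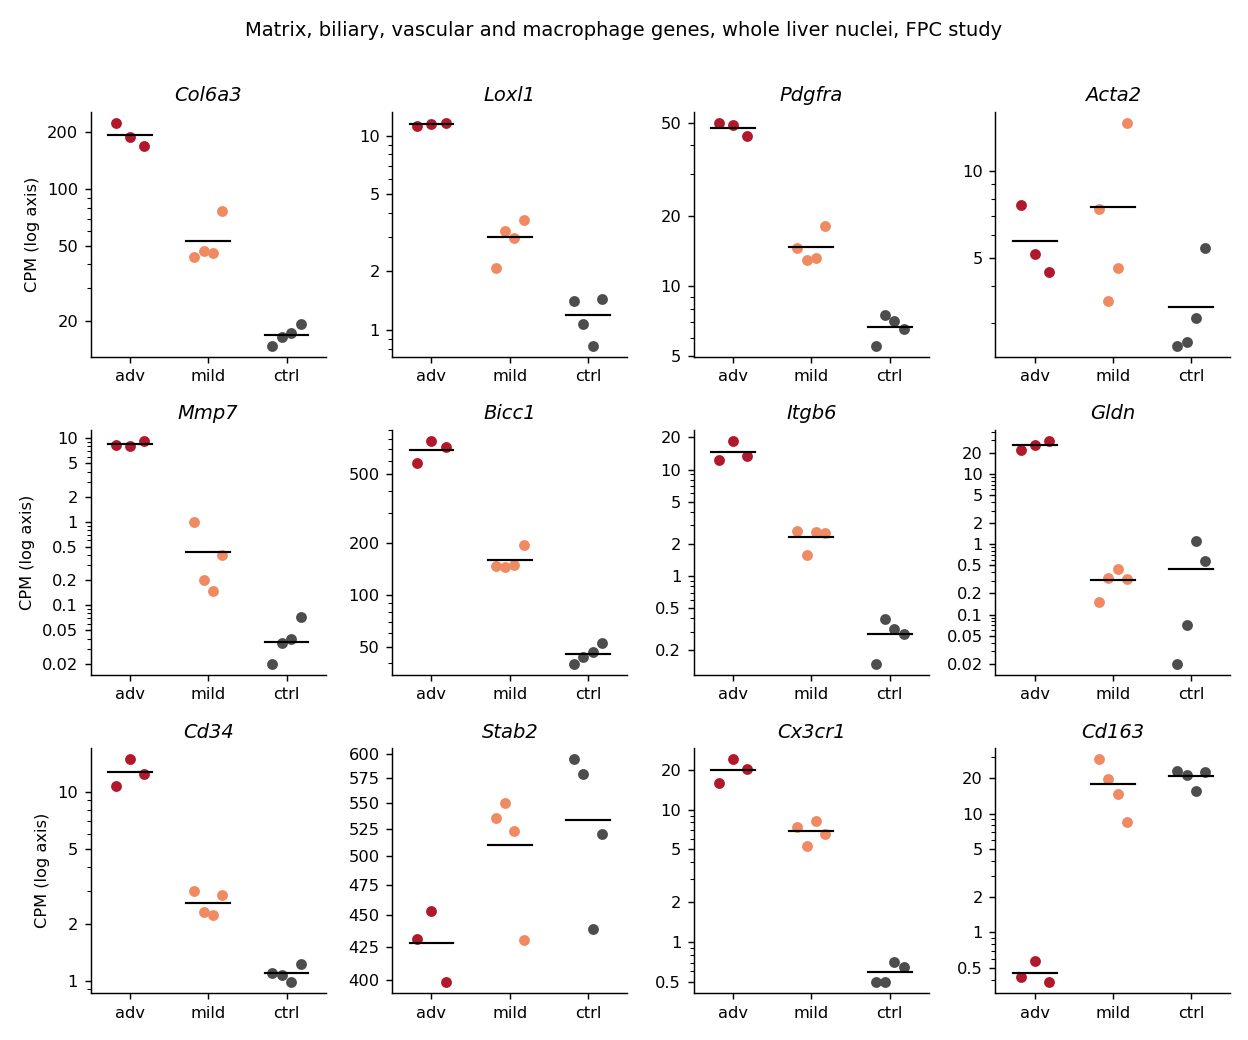
CPM (log axes) of 12 genes in whole liver nuclei of FPC advanced (adv), FPC mild and low-fat control (ctrl) mice. Each point is a mouse, lines are group means, and a library at 0 is drawn at 0.02 CPM. Col6a3, Loxl1, Pdgfra, Mmp7, Bicc1, Itgb6, Gldn, Cd34 and Cx3cr1 are higher in every advanced than in any mild mouse, Cd163 is lower in every advanced mouse, and Acta2 and Stab2 overlap.

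Signalling genes of the fibrotic response were called higher more often than lower, but each list had many members that did not pass. TGF-beta signalling had 7 of 20 genes higher and none lower (median 0.31). Tgfb2, a ligand, had 29.4, 52.4 and 34.3 CPM in advanced livers, against 13, 8.93, 10.6 and 13.8 CPM in mild livers (1.73 ± 0.21, adjusted p = 0.00011). Tgfb3, another ligand, rose by 1.35 ± 0.30 (adjusted p = 0.0069), whereas Tgfb1, the best known of the family, had 34.8, 36.9 and 28.6 CPM in advanced and 31.3, 24.4, 26.4 and 25 CPM in mild livers and did not pass (0.32 ± 0.19, adjusted p = 0.27). Itgb6, a subunit of the epithelial integrin that activates latent TGF-beta, had 12.3, 18.4 and 13.3 CPM in advanced and 2.65, 1.59, 2.58 and 2.55 CPM in mild livers (2.62 ± 0.22, adjusted p = 1.3e-05). In the tagged hepatocyte nuclei of the same mice Itgb6 averaged 21.8 CPM in advanced and 2.08 CPM in mild disease. The groups did not overlap for Tgfb2, Tgfb3 and Itgb6, nor for the latent TGF-beta binding protein Ltbp3 (1.51 ± 0.22, adjusted p = 0.0004).

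Target genes of the co-activator YAP had 8 of 17 members higher and none lower (median 0.27). Ankrd1, a classical target, had 8.32, 12.5 and 9.56 CPM in advanced livers, against 1.57, 2.05, 2.23 and 2.84 CPM in mild livers (2.23 ± 0.33, adjusted p = 0.0005). Ptpn14, a phosphatase that is itself a target, had 93.3, 119 and 87.0 CPM in advanced and 32.7, 37.8, 37.5 and 46.2 CPM in mild livers (1.37 ± 0.14, adjusted p = 3.9e-05). Arhgef17 and the DNA-binding partner Tead1 rose by 1.2 ± 0.16 and 0.83 ± 0.10. Ctgf, a secreted target and fibrosis marker, passed (1.11 ± 0.34, adjusted p = 0.035) but not without mouse Advanced_6826 (adjusted p = 0.20). The hedgehog and Notch list had 6 of 18 higher (3 without mouse Advanced_6880) and 1 lower (median 0.32). Gli2, a transcription factor of hedgehog signalling, had 12, 16.8 and 14.2 CPM in advanced and 4.44, 3.84, 3.47 and 7.05 CPM in mild livers (1.60 ± 0.23, adjusted p = 0.00042), and its relative Gli3 rose by 1.11 ± 0.16. Hhip, which binds and holds back hedgehog ligands, was the member that fell, with 1.18, 1.04 and 0.385 CPM in advanced and 8.18, 5.89, 4.37 and 3.04 CPM in mild livers (-2.66 ± 0.42, adjusted p = 0.00082). The Notch ligand Jag2 rose by 1.94 ± 0.39 (adjusted p = 0.0039) with its highest level, 4.04 CPM, in mouse Advanced_6880.

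Bile duct genes had the highest share of members called of any list. Of 15 cholangiocyte markers tested, 14 rose and none fell, with a median log2 fold change of 1.51, and 13 or 14 were called higher under each of the 17 alternatives. Their summed level was 2960 to 3930 CPM in advanced livers, against 1070 to 1380 CPM in mild livers and 690 to 764 CPM in controls. Bicc1, an RNA-binding protein of ductal epithelia, had 579, 777 and 719 CPM in advanced livers, against 147, 146, 148 and 196 CPM in mild livers (2.12 ± 0.14, adjusted p = 6.1e-06). Glis3, a zinc finger factor, had 527, 771 and 671 CPM in advanced and 166, 169, 185 and 210 CPM in mild livers (1.85 ± 0.13, adjusted p = 6.5e-06), and Ehf, an epithelial ETS factor, had 42.5, 69.4 and 53.8 against 11.9, 12.8, 9.38 and 13.8 CPM (2.21 ± 0.18, adjusted p = 9.3e-06). In each of the 3 genes every advanced mouse was above every mild mouse, with mouse Advanced_6880 highest. Cftr, the chloride channel of the bile duct, had 43.9, 57.7 and 40.6 CPM in advanced and 7.97, 6.68, 9.13 and 12.1 CPM in mild livers (2.4 ± 0.25, adjusted p = 4.7e-05). Spp1, or osteopontin, had 98.6, 67.5 and 60.9 CPM in advanced and 23.1, 14.4, 28 and 23.5 CPM in mild livers (1.76 ± 0.23, adjusted p = 0.00024).

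The keratins and surface proteins used to stain ducts had low CPM but moved with the rest of the list. Krt19 had 3.34, 4.18 and 2.63 CPM in advanced and 1.45, 1.85, 1.04 and 1.66 CPM in mild livers (1.18 ± 0.26, adjusted p = 0.0065), Krt7 rose by 1.33 ± 0.27 (adjusted p = 0.0042), and Epcam had 9.46, 9.44 and 6.04 against 2.14, 1.46, 2.33 and 2.71 CPM (1.92 ± 0.41, adjusted p = 0.0058). Groups did not overlap in any of the 3. Sox9, a factor of ducts and of progenitor-like hepatocytes, passed (1.37 ± 0.42, adjusted p = 0.036) but not without mouse Advanced_6880 (adjusted p = 0.10). The anion exchanger Slc4a2 was the one tested marker that did not pass (-0.10 ± 0.22, adjusted p = 0.80). Fetal and progenitor-associated genes, a list that shares tested members such as Sox9 and Prom1 with the duct markers, had 16 of 21 members higher and none lower (median 0.83), and 9 without mouse Advanced_6880. Tspan8, a membrane protein of digestive epithelia, had 29.4, 35.4 and 36.7 CPM in advanced and 7.24, 8.80, 9.08 and 10.4 CPM in mild livers (1.93 ± 0.15, adjusted p = 7.8e-06). Prom1, a progenitor surface protein, had 44.9, 59.1 and 64.8 against 14.1, 12.6, 11.5 and 17.1 CPM (2.02 ± 0.18, adjusted p = 1.5e-05). The epithelial transcription factors Elf3 and Glis2 rose by 2.14 ± 0.37 and 1.73 ± 0.25. Afp, the fetal albumin, stayed below 2 CPM in all 7 mice and did not pass (0.84 ± 0.32, adjusted p = 0.082). Mesothelial markers had 2 of 5 higher: Wt1, a factor of the liver capsule and of stellate cells (1.69 ± 0.28, adjusted p = 0.0011), and Gpm6a (1.15 ± 0.13, adjusted p = 6.1e-05). Msln did not pass (adjusted p = 0.36).

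Of 19 markers of the sinusoidal endothelium 7 fell and 1, the receptor Flt1, rose (median -0.29; Flt1 had an adjusted p of 0.038, and 0.16 without mouse Advanced_6880), with 3 lower without mouse Advanced_6880 and 4 without mouse Mild_6825, and their sum was 1140 to 1230 CPM in advanced and 1270 to 1530 CPM in mild livers. Of 12 markers of larger vessels and of capillarised sinusoids 6 rose and none fell (median 0.43), with sums of 139 to 160 CPM in advanced and 91.3 to 132 CPM in mild livers. Cd34, which sinusoidal cells gain on capillarisation, had 10.7, 14.8 and 12.4 CPM in advanced livers, against 2.99, 2.31, 2.23 and 2.84 CPM in mild livers (2.27 ± 0.17, adjusted p = 6.5e-06). Esm1, a marker of sprouting endothelium, had 2.28, 1.65 and 1.78 CPM in advanced and 0.265 to 0.694 CPM in mild livers (2.05 ± 0.39, adjusted p = 0.0028). Fbln2, a matrix protein of vessel walls, rose by 0.95 ± 0.20 (adjusted p = 0.005). Vwf, the von Willebrand factor of large vessels, did not pass (-0.11 ± 0.16, adjusted p = 0.67). Of the sinusoidal genes, Wnt2, a ligand that pericentral endothelium sends to hepatocytes, had 3.63, 1.69 and 2.4 CPM in advanced and 7.70, 5.82, 8.13 and 5.75 CPM in mild livers (-1.43 ± 0.27, adjusted p = 0.0028). Clec4g, a lectin, had 13.4, 4.72 and 6.99 against 18.6, 22.4, 18.7 and 18.7 CPM (-1.24 ± 0.27, adjusted p = 0.0065), and Dnase1l3, a secreted nuclease, fell by 1.0 ± 0.16 on the log2 scale (adjusted p = 0.00084). These genes fell without overlap of the groups, while Stab2, the scavenger receptor of the same cells, had 431, 453 and 399 CPM in advanced and 535, 550, 523 and 430 CPM in mild livers and did not pass (-0.25 ± 0.13, adjusted p = 0.19).

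Resident and recruited macrophage genes moved in opposite directions. Kupffer cell markers were lower in 7 of 16 genes and higher in 1 (median -0.53, and -0.32 without mouse Mild_6825), with sums of 419 to 534 CPM in advanced and 562 to 1010 CPM in mild livers; mouse Mild_6825 was above the other mild mice in 11 of the 16. Markers of recruited and lipid-associated macrophages were higher in 9 of 17 and lower in none (median 0.70), with sums of 360 to 390 CPM in advanced, 195 to 222 CPM in mild and 27.5 to 32.2 CPM in control livers. Cd163, a haemoglobin scavenger receptor of resident macrophages, had 0.422, 0.573 and 0.385 CPM in advanced livers, against 28.5, 19.4, 14.5 and 8.43 CPM in mild livers and a mean of 20.5 CPM in controls (-5.26 ± 0.44, adjusted p = 1.4e-05). Timd4, a receptor of embryonically derived Kupffer cells, had 3.89, 2.60 and 2.01 CPM in advanced and 44.2, 16.2, 26.6 and 12.4 CPM in mild livers (-3.15 ± 0.47, adjusted p = 0.00061). Clec4f, a lectin held to be specific to Kupffer cells in mice, had 22.2, 5.36 and 10.1 against 89.3, 69.5, 68.4 and 48.0 CPM (-2.46 ± 0.39, adjusted p = 0.00092), and Vsig4, a complement receptor, fell by 1.77 ± 0.32. In all 4 the groups were apart. The pan-macrophage marker Adgre1 (F4/80) did not pass: it had 147, 137 and 125 CPM in advanced and 255, 168, 137 and 125 CPM in mild livers (-0.33 ± 0.25, adjusted p = 0.40). C1qa of complement was the list's one member called higher (0.87 ± 0.25, adjusted p = 0.027) and missed the threshold without mouse Advanced_6826 (adjusted p = 0.15).

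On the recruited side, Cx3cr1, the fractalkine receptor of monocyte-derived cells, had 16.0, 23.9 and 20.2 CPM in advanced livers, against 7.36, 5.29, 8.23 and 6.52 CPM in mild livers (1.54 ± 0.18, adjusted p = 7.9e-05). Its ligand Cx3cl1 had 6.29, 8.09 and 5.50 against 1.33, 1.19, 1.79 and 1.22 CPM (2.26 ± 0.28, adjusted p = 0.00015). Receptor and ligand were thus both above every mild value. Itgax, or CD11c, had 55.6, 54.4 and 47.7 CPM in advanced and 24.3, 25, 24.6 and 25.7 CPM in mild livers (1.08 ± 0.12, adjusted p = 5.2e-05), Ms4a7 rose by 1.73 ± 0.28 and the tetraspanin Cd9 by 0.97 ± 0.14. Trem2 and Gpnmb, which mark lipid-associated macrophages and averaged 0.216 and 0.352 CPM in controls, were at most weakly separated by histology: Trem2 had 9.08, 8.46 and 6.75 CPM in advanced and 3.32, 5.56, 4.91 and 6.28 CPM in mild livers (0.70 ± 0.23, adjusted p = 0.046, and up to 0.15 with a mouse left out), and Gpnmb had 47.6, 32.0 and 38.7 against 26.4, 28.2, 22.1 and 24.8 CPM (0.64 ± 0.24, adjusted p = 0.075). Ccr2, the receptor for monocyte entry, and its ligand Ccl2 did not pass (0.48 ± 0.26 and 0.65 ± 0.29, adjusted p = 0.22 and 0.13).

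Lymphocyte markers were less even. T and NK cell genes had 6 of 15 members higher and none lower (median 0.84), but 1 without mouse Advanced_6880, which was above the other advanced mice in 14 of the 15, and 9 without mouse Mild_6825, which was above the other mild mice in 11. Their sums overlapped, with 247 to 348 CPM in advanced and 221 to 418 CPM in mild livers. Cd8a, of cytotoxic T cells, had 0.718, 2.63 and 1.60 CPM in advanced and 0.241, 0.529, 0.595 and 0.365 CPM in mild livers (2.0 ± 0.46, adjusted p = 0.0083; 0.053 without mouse Advanced_6880). Bcl11b, a T cell factor, rose by 0.98 ± 0.21 (adjusted p = 0.0063). Cd247 and Cd3e, chains of the T cell receptor complex, had log2 fold changes of 0.84 ± 0.21 (adjusted p = 0.013; 0.078 without mouse Advanced_6880) and 0.94 ± 0.32 (adjusted p = 0.0503, not called). Among B and plasma cell markers 1 of 11 fell, Bank1 (-0.97 ± 0.29, adjusted p = 0.032, and 0.13 without mouse Advanced_6880), and none rose. That count is near the 8.98% of all genes tested that fell. The B cell genes Pax5, Ebf1 and Cd79b did not pass (adjusted p = 0.087, 0.11 and 0.75). Of 8 dendritic cell markers 3 rose (Xcr1, Flt3 and Cd209a, adjusted p = 0.049, 0.042 and 0.042) and 1 fell (Clec9a). The count of rises was 0 without mouse Advanced_6880 and also without control mouse FPC_6852. Xcr1 was called under 3 of 16 alternatives and Cd209a under 4 of 16. Csf3r, the receptor by which neutrophils answer their growth factor, did not pass (0.32 ± 0.17, adjusted p = 0.21). Neither did the calcium-binding S100a9 (1.41 ± 0.51, adjusted p = 0.065) nor the gelatinase Mmp9 (0.48 ± 0.58, adjusted p = 0.62).

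Inflammatory mediators and antigen presentation were partly higher. NF-kB targets and chemokines had 6 of 18 members higher and none lower (median 0.54), and 3 without mouse Advanced_6880, which was highest of the advanced mice in 14 of the 18. Cxcl16, a chemokine that is also a scavenger receptor, had 21.5, 24.9 and 20.1 CPM in advanced livers, against 9.56, 8.53, 9.18 and 7.66 CPM in mild livers (1.34 ± 0.13, adjusted p = 2.9e-05), and Relb, an NF-kB subunit, had 35.6, 60.2 and 39.3 against 20.6, 25.7, 22 and 22.7 CPM (0.99 ± 0.16, adjusted p = 0.00095). The acute phase list had 5 of 22 higher and 2 lower; Lcn2, an iron-binding lipocalin, had 6.17, 5.66 and 5.42 CPM in advanced and 2.47, 1.52, 2.53 and 1.46 CPM in mild livers (1.51 ± 0.32, adjusted p = 0.005). Apcs, serum amyloid P, rose by 0.84 ± 0.22 (adjusted p = 0.016; 0.059 without mouse Advanced_6826). Saa4, a constitutive serum amyloid A, fell by 0.75 ± 0.20 (adjusted p = 0.017, and 0.089 without mouse Advanced_6880). Its groups overlapped, with 21.5 CPM in mouse Advanced_6826 and 20.7 CPM in mouse Mild_6825. Saa1 (0.25 ± 0.58) and the iron hormone Hamp (0.32 ± 0.23) also had overlapping values and did not pass. Without mouse Advanced_6826 the list had 1 member called higher, and its median was 0.05 where it was 0.28 with all mice.

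The list of interferon response and antigen presentation held 2 patterns. Of 25 genes 6 rose and 1 fell, with a median of -0.13. The 6 were the class II genes H2-Aa, H2-Ab1 and H2-Eb1, the invariant chain Cd74 that accompanies class II molecules, their regulator Ciita, and Irf8, a factor of monocytes and dendritic cells. H2-Ab1 and Ciita missed the threshold without mouse Advanced_6826 (adjusted p = 0.14 and 0.098). H2-Eb1 had 54.0, 58.4 and 45.0 CPM in advanced livers, against 34.0, 28.8, 26.4 and 26.2 CPM in mild livers (0.86 ± 0.14, adjusted p = 0.00081). Interferon-stimulated genes were high in 1 mild mouse instead: Ifi44, an interferon-induced protein, had 11.4, 9.61 and 12.1 CPM in advanced livers, against 27.9, 8.86, 6.95 and 6.32 CPM in mild livers (-0.19 ± 0.45, adjusted p = 0.81). The high value was that of mouse Mild_6825. That mouse was above the other 3 mild mice in 21 of the 25 genes, where it was so in 36.2% of all genes tested, and without it the list's median was 0.23. Stat2, the member called lower, had 131, 119 and 129 CPM in advanced and 175, 190, 165 and 166 CPM in mild livers (-0.46 ± 0.12, adjusted p = 0.016; 0.057 without scaling factors and 0.072 without mouse Advanced_6880).

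**Figure D2:**
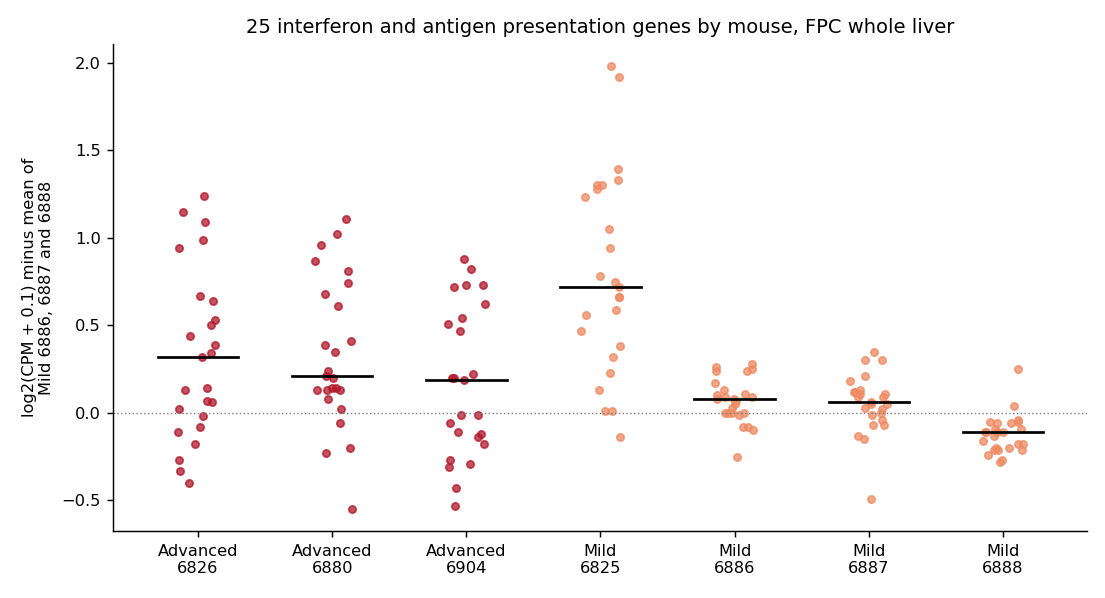
Log2(CPM + 0.1) of each of the 25 interferon and antigen presentation genes by mouse, minus the mean of mice Mild_6886, Mild_6887 and Mild_6888 for that gene; points are genes and lines are medians over them. The median is 0.72 in mouse Mild_6825 and 0.19 to 0.32 in the advanced mice.

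Of 20 hepatocyte markers 5 fell and none rose (median -0.35, and -0.17 without mouse Advanced_6880), 3 of 20 fell without scaling factors, and the overlapping sums of these markers are given above. The part that the share of hepatocyte nuclei had in the falls of hepatocyte genes was not tested. Alb, or albumin, had 2040, 1314 and 1185 CPM in advanced and 1719, 1074, 1325 and 1022 CPM in mild livers (0.24 ± 0.25, adjusted p = 0.57), and Hnf4a, the master regulator of hepatocyte identity, had 231, 203 and 236 against 211, 324, 288 and 245 CPM (-0.26 ± 0.17, adjusted p = 0.32). Neither passed. Apob, the lipoprotein backbone, had 1277, 1164 and 1050 CPM in advanced livers, against 1811, 1913, 1699 and 1722 CPM in mild livers (-0.62 ± 0.12, adjusted p = 0.0023). Hepatocyte transcription factors were lower in 6 of 22 genes and higher in 1 (median -0.29). Of these Nr1i3, the xenobiotic receptor CAR, had 38.3, 27.1 and 30.3 CPM in advanced and 94.6, 96.4, 132 and 104 CPM in mild livers (-1.74 ± 0.28, adjusted p = 0.001). The cholesterol sensor Nr1h3 (LXR alpha) and Creb3l3, a membrane-bound factor of fasting metabolism, fell by 0.63 ± 0.12 and 0.79 ± 0.12. Foxa1, a pioneer factor, fell by 0.85 ± 0.22 and its relative Foxa3 rose by 0.65 ± 0.19; neither call held with every mouse left out in turn (highest adjusted p = 0.058 for Foxa1 and 0.10 for Foxa3).

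Pericentral genes were lower with a larger median change than periportal genes. Of 14 pericentral genes 9 were lower and none higher, with a median of -1.25, and 6 were lower without mouse Advanced_6880. Of 14 periportal genes 3 were lower and 2 higher, with a median of -0.26 that became 0.08 without mouse Mild_6825; the difference between the lists was not tested. Glul, glutamine synthetase of the innermost pericentral hepatocytes, had 121, 51.7 and 56.8 CPM in advanced livers, against 253, 277, 293 and 286 CPM in mild livers (-1.86 ± 0.25, adjusted p = 0.00028). Slc1a2, a glutamate transporter of the same cells, had 155, 48.0 and 82.0 against 483, 251, 494 and 385 CPM (-2.09 ± 0.37, adjusted p = 0.0021). Cyp2e1, the ethanol-oxidising cytochrome P450 whose promoter is shown above, had 348, 366 and 194 CPM in advanced and 1296, 826, 1238 and 818 CPM in mild livers (-1.79 ± 0.27, adjusted p = 0.00055). The 3 genes were lower in every advanced mouse, and for Glul and Slc1a2 mouse Advanced_6826 kept the highest advanced level. On the periportal side Cyp2f2 fell (35.7, 40.5 and 42.1 against 146, 87.5, 84.2 and 62.6 CPM; -1.27 ± 0.27, adjusted p = 0.0057), and Cdh1, the E-cadherin that bile ducts also express, rose (1.51 ± 0.38, adjusted p = 0.014). Gls2, periportal glutaminase, fell by 0.56 ± 0.17 (adjusted p = 0.034; 0.11 without mouse Advanced_6880 and 0.077 without scaling factors). Cdh1 is among the duct markers above, whose part in its rise was not tested.

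Of 18 xenobiotic cytochromes P450, 10 were lower and none higher, with a median of -0.93. Cyp2c54 had 2.37, 2.97 and 3.46 CPM in advanced and 27.9, 16.3, 36.3 and 28.1 CPM in mild livers (-3.20 ± 0.25, adjusted p = 8.8e-06), and Cyp2c50 had 5.53, 4.45 and 4.03 against 70.2, 24.3, 48.0 and 43.5 CPM (-3.33 ± 0.30, adjusted p = 2.4e-05). Cyp2d9 had 45.0, 18.8 and 22.4 CPM in advanced and 136, 201, 170 and 198 CPM in mild livers (-2.62 ± 0.34, adjusted p = 0.00023). All 3 enzymes were clear of the mild range, and their controls averaged 181, 170 and 353 CPM. Cyp2b10, the usual target of CAR, was variable, with 0.211, 7.32 and 1.2 CPM in advanced and 0.149 to 0.794 CPM in mild livers, and did not pass (adjusted p = 0.16). Close copies exist in the Cyp2c, Mup, Sult2a, Hsd3b and Vmn2r families, among which the authors' counting could have divided reads, so values of single members are uncertain.

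**Figure D3:**
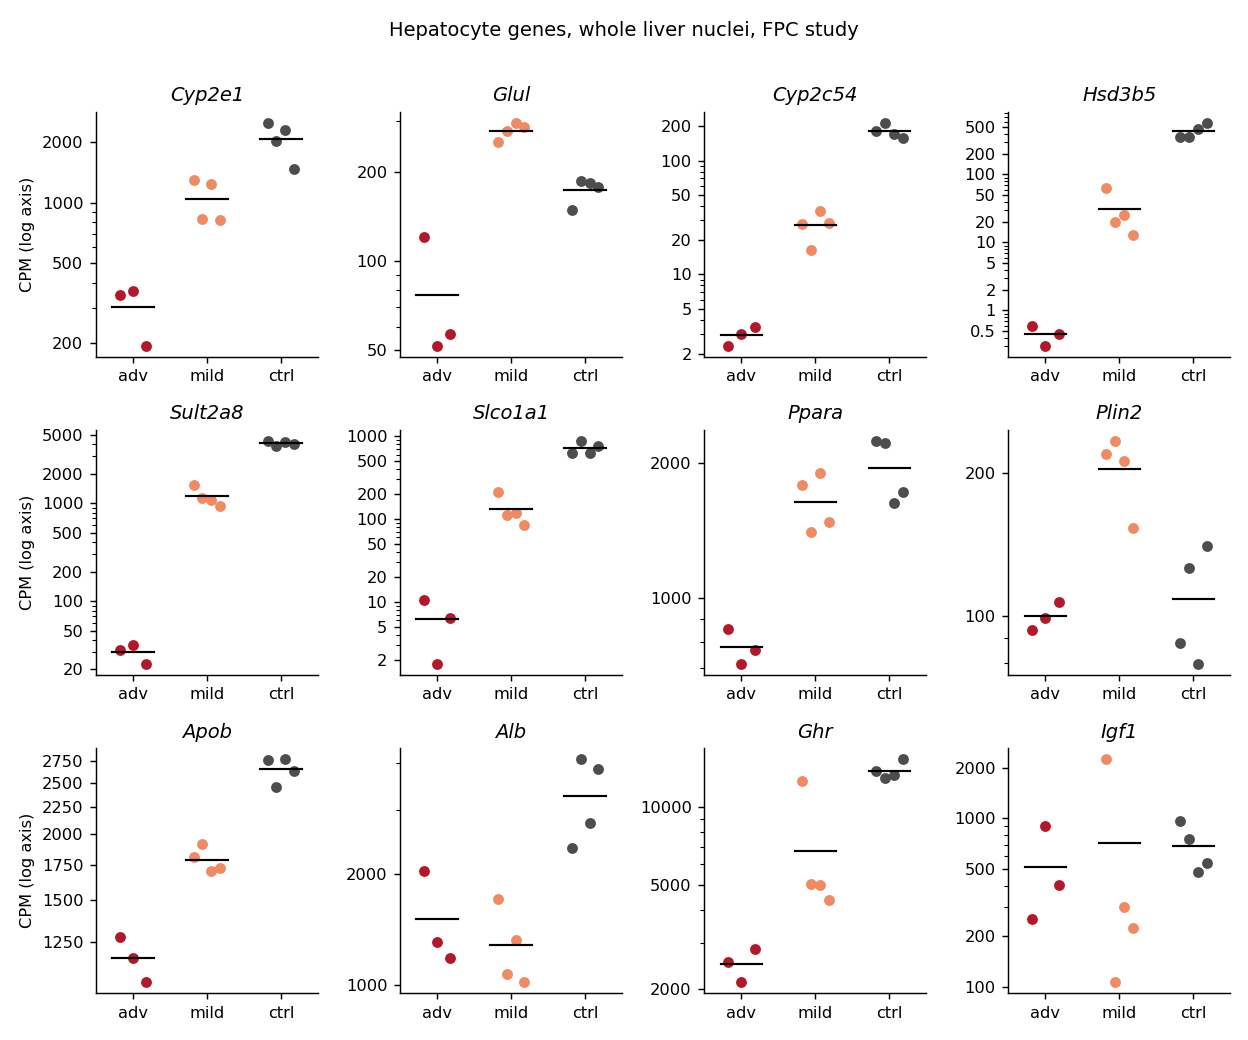
CPM (log axes) of 12 hepatocyte genes in whole liver nuclei of FPC advanced (adv), FPC mild and low-fat control (ctrl) mice; each point is a mouse and lines are group means. The first 9 genes from Cyp2e1 to Apob are lower in every advanced than in any mild mouse, Alb and Igf1 overlap, and Ghr and Igf1 have a single high mild mouse, Mild_6825, at 12510 and 2236 CPM.

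Genes that mouse livers express more in males were among those that fell most. Of 18 male-biased genes 9 fell and none rose, with a median of -2.16 (-1.08 without mouse Mild_6825, which was above the other mild mice in 12 of the 18). Sult2a8, a hepatic bile acid sulfotransferase outside the list, had 31.8, 35.5 and 22.9 CPM in advanced livers, against 1539, 1136, 1074 and 941 CPM in mild livers and a mean of 4096 CPM in controls (-5.29 ± 0.23, adjusted p = 2.6e-07). Hsd3b5, a male-specific steroid dehydrogenase, had 0.591, 0.303 and 0.444 CPM in advanced and 64.1, 19.8, 25.2 and 13 CPM in mild livers (-6.11 ± 0.65, adjusted p = 7.3e-05), with a control mean of 434 CPM. Slco1a1, an organic anion transporter, had 10.4, 1.79 and 6.33 against 213, 111, 117 and 84.1 CPM (-4.42 ± 0.53, adjusted p = 0.00018), and the urinary protein gene Mup12 fell by 4.37 ± 0.73. The mild range lay between the advanced range and the control mean in each of these genes. Other large falls were in genes outside the lists. Sgcz, a sarcoglycan, had 0.676, 0.876 and 1.21 CPM in advanced and 39.0, 59.9, 80.4 and 85.4 CPM in mild livers (-6.13 ± 0.72), with a control mean of 50.0 CPM, and Trhde, which degrades thyrotropin-releasing hormone, had 3.34, 1.69 and 2.78 against 46.6, 49.6, 37.2 and 31.1 CPM (-3.99 ± 0.26). Gbp2b, an interferon-induced GTPase, fell by 4.06 ± 0.76 with its highest level, 27.0 CPM, in mouse Mild_6825, Sult2a7 fell by 4.09 ± 0.55 and Lrtm1 by 3.84 ± 0.36. Of 11 female-biased genes 3 rose (Cyp2a4, Cux2 and Atp6v0d2) and none fell (median 0.86). Only Atp6v0d2 kept its call without mouse Advanced_6880 (list median 0.42), and it is also counted among the recruited macrophage markers above. Cyp2a4 had 8.11, 81.8 and 26.8 CPM in advanced and 7.97, 4.83, 8.19 and 6.36 CPM in mild livers (2.5 ± 0.60, adjusted p = 0.012; 0.061 without mouse Advanced_6880), and Cux2, a female-specific repressor, had 17.4, 73.0 and 22.6 against 11.4, 17.2, 15.6 and 16.1 CPM (adjusted p = 0.029; 0.14 without that mouse). Cyp2b9, another female-biased enzyme, ranged from 3.63 to 101 CPM in advanced and from 7.85 to 120 CPM in mild livers and did not pass (adjusted p = 0.96).

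In the growth hormone axis, Ghr, the hormone's receptor, had 2542, 2130 and 2835 CPM in advanced livers, against 12510, 5041, 5023 and 4396 CPM in mild livers (-1.43 ± 0.33, adjusted p = 0.0077). Igf1, its effector, had 254, 899.9 and 402 CPM in advanced and 2236, 108, 298 and 226 CPM in mild livers (-0.47 ± 0.89, adjusted p = 0.77), and the estimate was 1.31 without mouse Mild_6825. Socs2, a feedback inhibitor of the receptor, had 9.46, 47.0 and 11.3 against 10.5, 3.90, 5.61 and 4.01 CPM (adjusted p = 0.031; 0.25 without mouse Advanced_6880). Ghr therefore separated the groups and Igf1 did not, and the Socs2 call was lost without any 1 of 4 mice. Of the 15 genes of the axis 2 were higher (Socs2 and the leptin receptor Lepr, whose adjusted p of 0.033 became 0.13 without mouse Advanced_6880) and 1 lower (Ghr), with 0 higher without mouse Advanced_6880. These counts are near the shares of all genes tested, 13.3% higher and 8.98% lower.

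Of the lipid metabolism genes called, most were lower. Fatty acid oxidation and ketogenesis had 9 of 24 genes lower and none higher (median -0.47). Ppara, the receptor that drives oxidation, had 857, 717 and 768 CPM in advanced livers, against 1786, 1404, 1899 and 1474 CPM in mild livers (-1.07 ± 0.16, adjusted p = 0.00057). Cpt1a, of mitochondrial import, and the carnitine carrier Slc25a20 fell by 0.67 ± 0.14 and 0.73 ± 0.14. These 3 genes were lower in every advanced mouse. Lipid droplet and uptake genes had 8 of 22 lower and 1, the lipase Lpl, higher (median -0.50; Lpl had an adjusted p of 0.011, and 0.053 without mouse Advanced_6826). Plin2, the main droplet coat protein of steatotic hepatocytes, had 93.8, 99.3 and 107 CPM in advanced and 220, 233, 212 and 153 CPM in mild livers (-1.03 ± 0.20, adjusted p = 0.0032), and the advanced levels were close to the control mean of 109 CPM. Cidea, a droplet fusion protein, had 0.422, 0.303 and 0.710 against 12.9, 3.77, 3.62 and 4.38 CPM (-3.67 ± 0.61, adjusted p = 0.0012), whereas its relative Cidec had 21.0, 23.7 and 18.7 against 26.6, 22.9, 26.9 and 27.8 CPM and did not pass (adjusted p = 0.26). The fatty acid binding protein Fabp1 and the transport proteins Slc27a5 and Slc27a2 fell by 1.13 ± 0.19, 1.37 ± 0.15 and 0.82 ± 0.14, and the scavenger receptor Cd36 did not pass (-0.52 ± 0.34, adjusted p = 0.32).

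Synthesis of fatty acids and triglycerides had 6 of 22 genes lower and 1 higher (median -0.64); without mouse Advanced_6880 it had 3 lower and a median of -0.37. Acss2, which activates acetate, had 98.7, 32.3 and 79.1 CPM in advanced livers, against 190, 258, 224 and 211 CPM in mild livers (-1.66 ± 0.32, adjusted p = 0.0031), and Mlxipl, the sugar-sensing factor ChREBP, fell by 0.87 ± 0.21 (adjusted p = 0.0099), as did the acyltransferase Agpat2 (by 0.92 ± 0.21). Fasn, fatty acid synthase, had 370, 71.0 and 191 against 203, 442, 290 and 388 CPM and did not pass (adjusted p = 0.34). The member that rose was Scd2, a desaturase, with 51.1, 29.1 and 54.2 CPM in advanced and 16.7, 19.8, 22.5 and 22.9 CPM in mild livers (1.13 ± 0.24, adjusted p = 0.0056). In the tagged hepatocyte nuclei of the same mice Scd2 averaged 36.5 CPM in advanced and 11.1 CPM in mild disease. Cholesterol synthesis and uptake had 9 of 24 lower and none higher (median -0.60), but 3 lower without mouse Advanced_6880, whose values were above those of the other advanced mice in 1 of the 24 genes. Hsd17b7 fell by 0.99 ± 0.21 and the sterol carrier Stard4 by 0.65 ± 0.17 (adjusted p = 0.015; 0.064 without mouse Advanced_6826 and 0.051 without scaling factors). Hmgcs1 and Sqle did not pass (adjusted p = 0.18 and 0.97).

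Bile acid genes were lower in 8 of 24 and higher in 2, Abcc4 and Slc51b (median -0.60; Slc51b had an adjusted p of 0.033, and 0.12 without mouse Advanced_6880), with 12 lower without mouse Mild_6825 and 5 without mouse Advanced_6880. Cyp8b1, which sets the share of cholic acid, had 4.39, 1.21 and 2.52 CPM in advanced livers, against 8.24, 23.1, 26.1 and 16.7 CPM in mild livers (-2.79 ± 0.50, adjusted p = 0.0024). Uptake transporters were lower too: Slco1b2 had 768, 426 and 474 against 1531, 1179, 1606 and 1232 CPM (-1.32 ± 0.20, adjusted p = 0.00057), and Slc10a1 fell by 1.57 ± 0.40 (adjusted p = 0.015; 0.071 without mouse Advanced_6880). The basolateral exporter Abcc4 rose, with 91.9, 261 and 219 CPM in advanced and 61.1, 54.8, 55.4 and 53.5 CPM in mild livers (1.76 ± 0.27, adjusted p = 0.00077). Among exporters of the canalicular side, Abcb4 fell by 0.48 ± 0.14 (adjusted p = 0.024, and 0.11 without mouse Advanced_6880). Abcc2 fell by 0.62 ± 0.16 (adjusted p = 0.017, and 0.067 without scaling factors). Abcb11, of the same side, was tested and not called. Cyp7a1, which catalyses the first step of classical bile acid synthesis, had 97.9, 92.2 and 68.9 against 143, 27.6, 130 and 56.8 CPM and did not pass (-0.05 ± 0.56, adjusted p = 0.96).

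Secreted clotting and complement factors were lower in 15 of 28 genes and higher in none (median -0.55), with 8 lower without mouse Advanced_6880 and 8 without scaling factors. F13b, a subunit of the clot-stabilising factor, had 29.8, 33.2 and 32.9 CPM in advanced livers, against 61.7, 63.8, 62.4 and 56.7 CPM in mild livers (-0.93 ± 0.09, adjusted p = 2.9e-05). Masp2 of the lectin pathway fell by 0.87 ± 0.15, and plasminogen (Plg) had 325, 271 and 328 against 440, 729, 578 and 534 CPM (-0.89 ± 0.18, adjusted p = 0.0039). Urea cycle, gluconeogenesis and amino acid genes had 7 of 27 lower and none higher (median -0.56, and -0.35 without mouse Advanced_6880); the count of lower members ran from 5 to 10 over the alternatives. Among them were Tdo2, which opens tryptophan breakdown (-1.11 ± 0.18), and Aass, of lysine breakdown (-1.07 ± 0.21). The metabolic hormone Fgf21 did not pass (0.99 ± 0.50, adjusted p = 0.19). Lists of growth, stress and timing had fewer members called, where 13.3% of all genes tested were higher and 8.98% lower. Of 28 cell cycle genes 2 rose: Ccnd1, or cyclin D1, had 51.8, 49.7 and 34.7 CPM in advanced and 21.0, 14.9, 22.5 and 20.3 CPM in mild livers (1.2 ± 0.19, adjusted p = 0.00084), and Prc1 was called less securely (0.75 ± 0.23, adjusted p = 0.034; 0.12 without mouse Advanced_6904). Mki67, the proliferation antigen, had 52.0, 47.0 and 53.7 against 38.4, 48.0, 37.8 and 34.8 CPM and did not pass (0.36 ± 0.17, adjusted p = 0.15), and both groups were above the control mean of 5.21 CPM. Top2a and Cdk1 did not pass either (adjusted p = 0.11 and 0.077). In the tagged hepatocyte nuclei of the same mice 13 of the 28 were called higher and none lower (median 0.63). Of all genes tested in that fraction, 26.2% were called in either direction. The difference between the fractions passed for none of the 28. Of 15 p53 targets 1 was higher, Phlda3, which missed the threshold without mouse Advanced_6880 (adjusted p = 0.088). The targets Cdkn1a, Mdm2 and Fas did not pass (adjusted p = 0.20, 0.056 and 0.073). Of 18 NRF2 targets, genes of the response to oxidants, Gsta1, Gstm3, Abcc4 and Cbr3 were higher, Gsta1 not without mouse Advanced_6880 (adjusted p = 0.16) and Gstm3 not without mouse Advanced_6904 (adjusted p = 0.10). Of 17 immediate early genes Fosl2, Ier3 and Klf6 were higher, Ier3 not without mouse Advanced_6880 (adjusted p = 0.11), and mouse Advanced_6880 was above the other advanced mice in 15 of the 17. It was so in 5566 of all 14129 genes tested. Among 18 genes of the unfolded protein and integrated stress response Hsp90b1, Dnajb9 and Sel1l were lower, and 1 was without mouse Advanced_6880 or without scaling factors. Among 18 clock genes Rora was higher (adjusted p = 0.025; 0.095 without mouse Advanced_6880), and Cry2 (adjusted p = 0.022; 0.13 without scaling factors) and Hlf were lower.

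**Figure D4:**
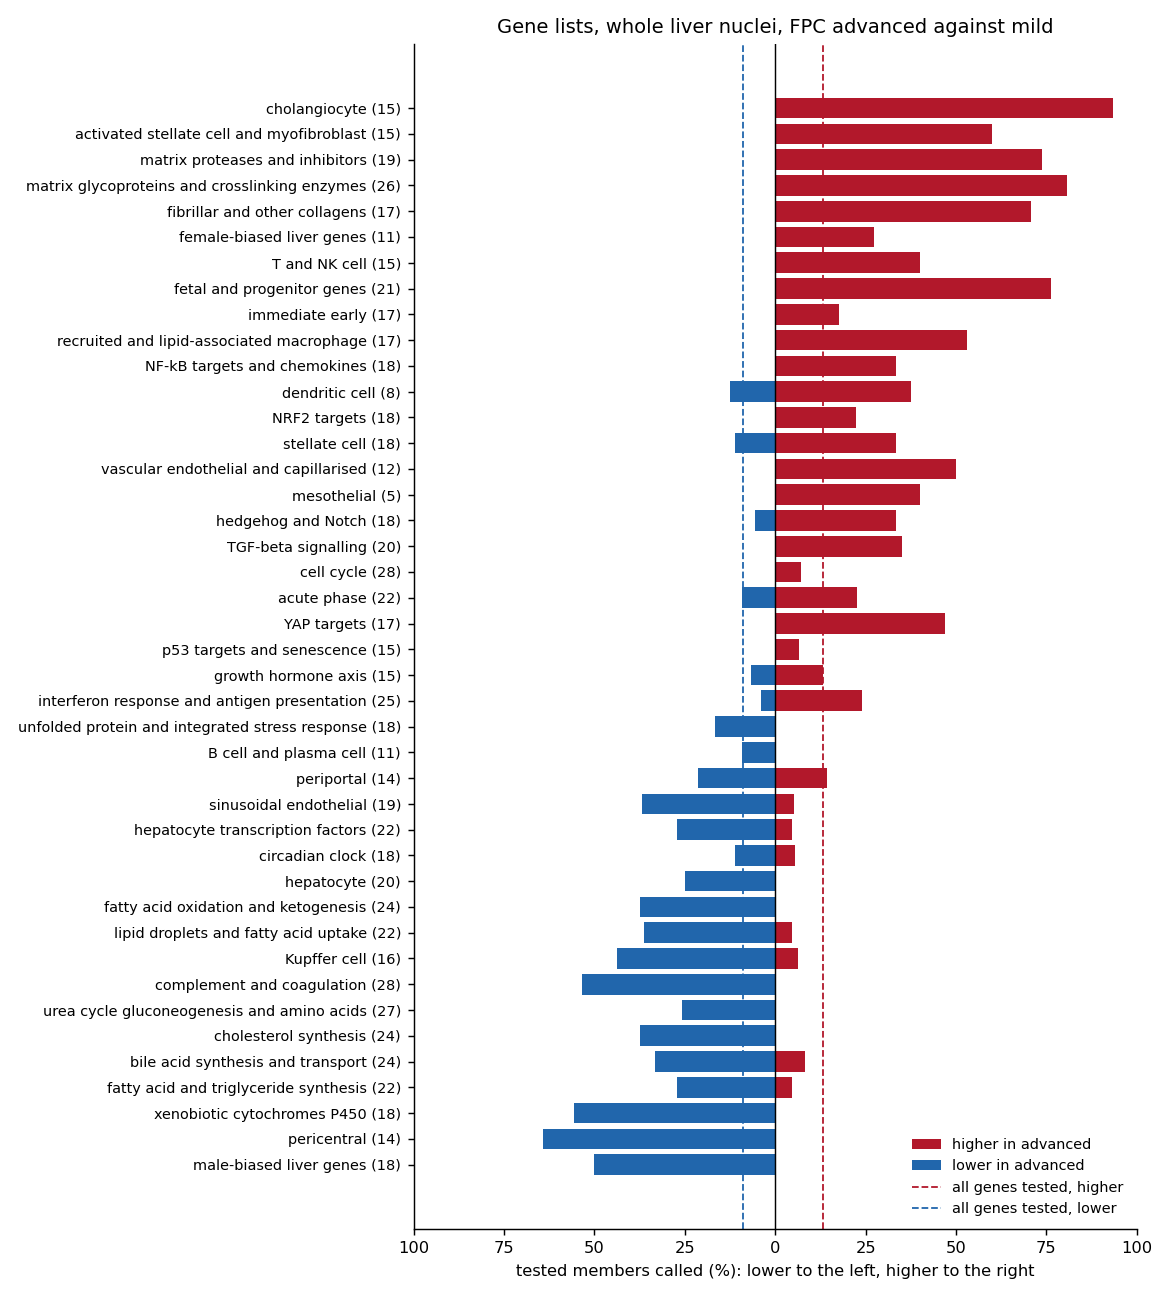
Share of the tested members of each pathway or marker list (number tested in brackets) called higher (right, red) or lower (left, blue) in FPC advanced than in mild whole liver nuclei; dashed lines are the shares among all genes tested, 13.3% and 8.98%. Cholangiocyte markers have the highest share called higher (14 of 15) and pericentral genes the highest share called lower (9 of 14).

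Other genes with the largest rises were near 0 in mild livers. Lrtm2 had 131 counts in the advanced and 3 in the mild libraries, a ratio of 46.6 with a 95% counting interval of 15.6 to 229, and Cacng3, a subunit of neuronal calcium channels and glutamate receptors, had 143 and 5 counts. Igdcc4, an immunoglobulin superfamily protein, had 6.29, 29.4 and 22.1 CPM in advanced livers, against 0.996, 1.19, 0.794 and 1.54 CPM in mild livers (4.09 ± 0.44, adjusted p = 6.1e-05). Kirrel3, a cell adhesion protein, had 11.8, 29.7 and 25.8 against 2.02, 1.06, 1.14 and 2.07 CPM (3.79 ± 0.32, adjusted p = 1.2e-05), and Igf2bp3, an RNA-binding protein of fetal tissues, had 6.25, 10.8 and 21.9 against 0.634, 1.46, 0.546 and 1.30 CPM (3.77 ± 0.64, adjusted p = 0.0015). The mild mice were uniformly low in these genes and the advanced mice differed among themselves. Meox1, a homeobox factor, rose by 3.74 ± 0.52, Vmn2r3 by 3.88 ± 0.67 and the calcium channel Cacna1b by 3.84 ± 0.48.

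The same histology contrast under the CDAHFD, in 7 whole liver libraries of other mice, gave 240 genes higher and 246 lower, or 3.37% of 14413 tested. Of the 1881 genes higher under FPC, 218 were also higher under CDAHFD (11.6% of the FPC list and 91.2% of the 239 CDAHFD genes tested in both), and of the 1269 lower, 193 were also lower (15.2%, and 78.8% of 245), and none was called in opposite directions. Whether a change differed between the diets was tested directly, and 161 genes (1.12%) passed, 138 with the higher value under FPC. That count was 5, 10 and 15 without mouse CDAHFD_Advanced_9845, mouse Advanced_6880 and mouse CDAHFD_Mild_9894, and 462 with DESeq2. The 5 genes of smallest p passed under all 18 alternatives. Cd34 had a log2 fold change of 2.27 under FPC and 0.35 under CDAHFD (difference 1.92, adjusted p = 0.0038). Cx3cr1 had 1.54 under FPC and -0.35 under CDAHFD (difference 1.89, adjusted p = 0.0038). Lypd6, a modulator of Wnt signalling, had 2.38 and 0.02 (difference 2.35), Pex5l had 2.35 and 0.05 (difference 2.30), and Greb1l had 2.17 and 0.61 (difference 1.56). These 5 were the genes called without mouse CDAHFD_Advanced_9845, so each other diet difference given here lost its call without that mouse.

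Matrix and stellate genes were among those whose change was larger under FPC. The 17 collagens had a median log2 fold change of 1.02 under FPC and 0.15 under CDAHFD, and Col6a3 had a log2 fold change of 1.86 under FPC and 0.40 under CDAHFD (difference 1.47, adjusted p = 0.033). Adamtsl2 (2.12 and 0.05), Ltbp2 (2.20 and 0.52), Loxl1 (1.94 and 0.33), Pdgfra (1.69 and 0.41), Pdgfrb (1.12 and 0.08) and Cygb (1.81 and 0.32) also passed the test of the difference in the full set of mice, and all 7 missed it without mouse CDAHFD_Advanced_9845. In mild livers Col6a3 averaged 80.2 CPM under CDAHFD and 53.4 CPM under FPC, Adamtsl2 33.4 and 17.5 CPM, and Fbn1 44.7 and 46.2 CPM. In advanced livers Col6a3 averaged 105.5 CPM under CDAHFD and 194.4 CPM under FPC, and Adamtsl2 34.6 and 75.95 CPM. These levels come from separate fits, and the part of the mild level in the size of a change was not tested. Of the 15 duct markers 6 were higher under CDAHFD, and Tspan8 (1.93 and 1.46) and Plat (2.0 and 1.59) had differences of 0.47 ± 0.35 and 0.40 ± 0.38 (SE) that did not pass. Among the genes that fell, Cd163 (-5.26 and -2.68), Clec4f (-2.46 and -0.47), Glul (-1.86 and -0.67) and Sult2a8 (-5.29 and -3.48) passed with the larger fall under FPC, though not without mouse CDAHFD_Advanced_9845. Cyp2e1 (-1.79 and -1.74), Nr1i3 (-1.74 and -1.62) and Cyp2c54 (-3.20 and -3.00) did not, with differences of -0.05 ± 0.53, -0.13 ± 0.39 and -0.20 ± 0.55. Cidec went in opposite directions, at -0.30 under FPC, where it did not pass, and 1.41 under CDAHFD (difference -1.71, adjusted p = 0.019), a call that was also lost without that mouse. The diets ran for different times, 20 and 7 weeks, so diet and duration cannot be told apart here.

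**Figure D5:**
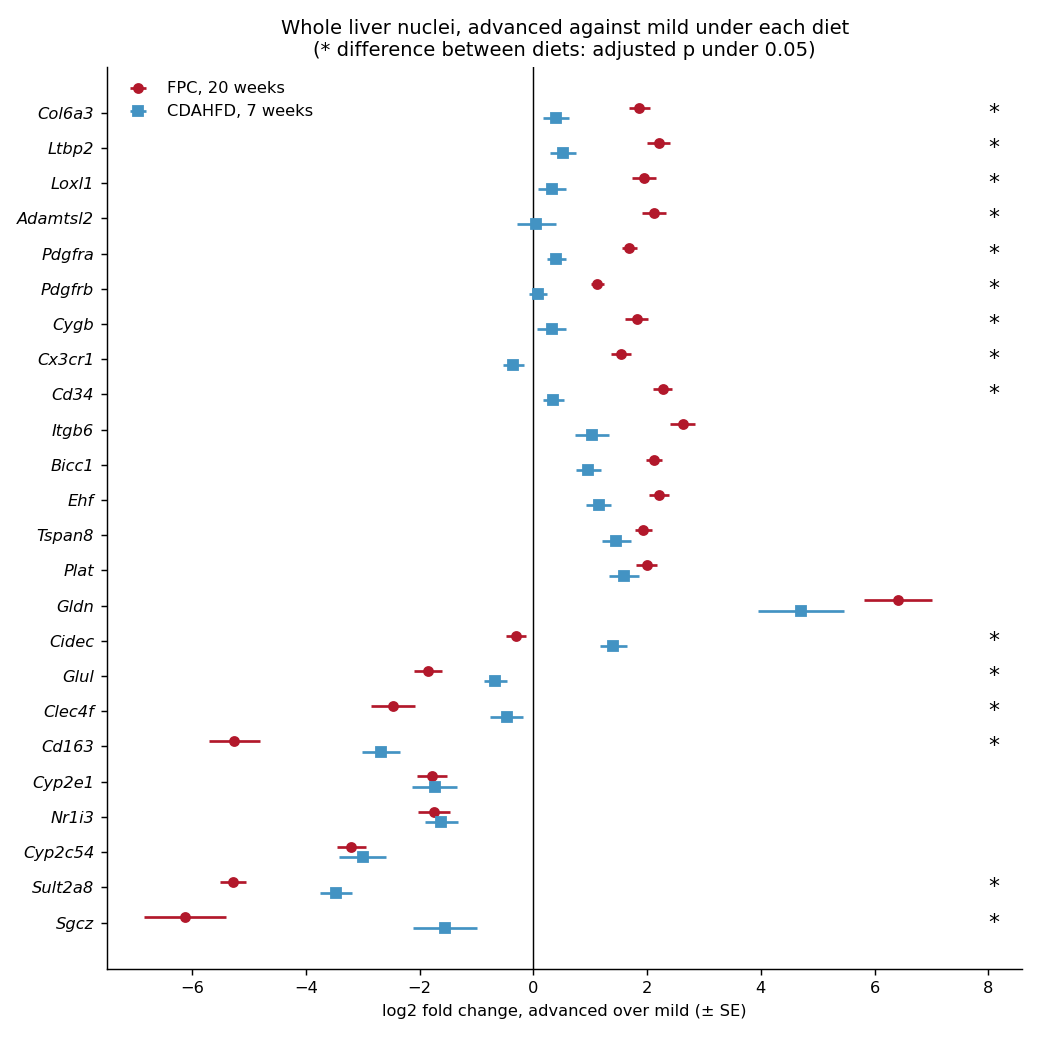
Log2 fold change of advanced over mild whole liver nuclei for 24 genes under the FPC diet (red circles) and the CDAHFD (blue squares); bars are standard errors and asterisks mark genes whose change differed between the diets at an adjusted p under 0.05. The 7 matrix and stellate genes from Col6a3 to Cygb lie at 1.12 to 2.20 under FPC and at 0.05 to 0.52 under CDAHFD, whereas Cyp2e1, Nr1i3 and Cyp2c54 lie at -1.79, -1.74 and -3.20 under FPC and at -1.74, -1.62 and -3.00 under CDAHFD.

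The tagged hepatocyte nuclei of the same 7 mice gave 2132 genes higher and 1625 lower in advanced than in mild disease (26.2% of 14333 tested). The difference between the whole liver change and the hepatocyte nuclei change passed for 26 genes (0.181%) when libraries were treated as independent, and for 500 (3.49%) with the mouse as a block, which pairs both libraries of a mouse; 288 of the 500 had the larger value in whole liver. The unpaired count was 1 without mouse Advanced_6880, 4 without mouse Mild_6887 and 11, 14 and 16 without mice Advanced_6904, Mild_6886 and Mild_6888. Serpine2, a secreted protease inhibitor, had a log2 fold change of 0.53 in whole liver and -2.05 in hepatocyte nuclei (difference 2.63, adjusted p = 0.00035; 3.6e-06 with the mouse block). Kcnq3, a potassium channel, had 2.84 in whole liver and 0.21 in hepatocyte nuclei (difference 2.68, adjusted p = 0.0053), Prrx1, a mesenchymal homeobox factor, had 1.29 and -1.26 (2.60, adjusted p = 0.0081), Mrvi1 had 1.0 and -0.78 (1.82, adjusted p = 0.0034), and Col15a1 had 1.61 and 0.02 (1.64, adjusted p = 0.011). Lama4, a laminin chain, had 0.43 and 1.95 (-1.47, adjusted p = 0.0034) and Greb1l 2.17 and 3.90 (-1.68, adjusted p = 0.01). Of these genes Serpine2 passed under all 12 alternatives of the unpaired test, and every other one missed the threshold without mouse Advanced_6880. The whole liver calls of Serpine2 and Lama4 themselves were lost with any 1 of 6 mice left out (adjusted p up to 0.10 for Serpine2 and 0.12 for Lama4).

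Markers of other cell types were also measured in the tagged fraction. There 13 of 19 sinusoidal and 9 of 16 Kupffer cell markers were lower in advanced disease (medians -1.18 and -1.37), and none was higher. Which cells these values came from was not tested, so values in hepatocyte nuclei are those of the fraction. With the mouse block, the difference between the fractions passed for 8 of 18 stellate, 8 of 19 sinusoidal and 3 of 12 larger-vessel markers. The larger value was in whole liver for Pdgfrb (1.12 in whole liver and 0.17 in hepatocyte nuclei, adjusted p = 0.045), Col6a3 (1.86 and 1.11, adjusted p = 0.032), Fbn1 (0.91 and 0.18, adjusted p = 0.017), Lrat (0.18 and -0.96, adjusted p = 0.0088) and Stab2 (-0.25 and -1.15, adjusted p = 0.0077), and the difference did not pass for Pdgfra (adjusted p = 0.54) or Cygb (adjusted p = 0.29). The larger value was in hepatocyte nuclei for Glis3 (1.85 and 2.4, adjusted p = 0.011), Ptpn14 (1.37 and 2.25, adjusted p = 0.007), Tgfb2 (1.73 and 2.62, adjusted p = 0.015) and Abcc4 (1.76 and 3.22, adjusted p = 0.0019), and in whole liver for Gli3 (adjusted p = 0.010). Duct markers were called higher in advanced disease in the tagged fraction too, in 13 of 15 genes with a median of 2.10, and the difference passed for 2 of the 15 (Bicc1 and Epcam did not, adjusted p = 0.20 and 0.75). Of the hepatocyte genes that fell, Glul passed with the mouse block, at -1.86 in whole liver and -2.24 in hepatocyte nuclei (adjusted p = 0.026). The log2 fold changes in whole liver and in hepatocyte nuclei did not pass the test of the difference in either fit for Cyp2e1 (-1.79 and -1.90), Hsd3b5 (-6.11 and -6.69), Sult2a8 (-5.29 and -5.01) and Ppara (-1.07 and -0.94).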

How the data were processed

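Raw counts per gene, deposited by the authors as whole numbers for 44 libraries of 22 mice, were the input. Per the labels' protocols, 50 to 100 ng of total RNA was made into stranded libraries without selecting polyadenylated RNA and sequenced as 50-base pairs, and the submitters' processing notes name STAR 2.4.2a, DESeq2 1.24.0 and the build mm10. The counting tool and its strand setting are not given in the sources used here, so overlapping and antisense genes are uncertain, as are the close copies named in the text. For 94.7% of the 13147 genes in the authors' deposited table of comparisons the counted length equals the gene length, so introns were counted. That table holds log2 fold changes and adjusted p-values of hepatocyte libraries, computed by the authors, and was used for gene lengths and for symbols alone (13147 identifiers, with 6879 more from a RefSeq gene table and 79 without a symbol).

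Counts were analysed here with edgeR 4.0.16 in R 4.3.3: filterByExpr by group, TMM scaling, and the robust quasi-likelihood F test over the 11 FPC whole liver libraries, advanced minus mild, adjusted after Benjamini and Hochberg over every gene in the fit (threshold 0.05). Each standard error was taken as the size of the log2 fold change over the root of its F statistic. The diet difference was fitted over 22 whole liver libraries and the fraction difference over 22 FPC libraries, without and with a block for the mouse. Mouse numbers pair the fractions, since both libraries came from 1 animal, and deviations from the group means correlated at 0.434 to 0.797 in all 7 mice. On simulated counts for this comparison (13991 genes), 53% of 100 genes changed 2-fold and 9% of 100 changed 1.5-fold were recovered, with 2 unchanged genes called. Depth limits small changes in low genes, and counting intervals cover counting error only.

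The 10 genes with the largest rise and the 10 with the largest fall were named among called genes whose groups did not overlap and whose mean was at least 1 CPM in 1 group, then the 3 members of smallest p of each of 30 pathway and 13 marker lists, a set of well-known liver genes, and up to 5 genes of each difference. The members and lists were chosen with earlier results of these data known, and further list members were chosen after their values were seen. Of 756 list genes 748 were measured, and some members are counted in their lists but not reported here by name. Alternatives were RLE scaling, DESeq2 1.42.0, no filter, a stricter filter of 50 counts in 3 libraries, the 7 libraries alone, no scaling factors (chosen after seeing the data), the replicate block and each mouse left out. Every column of the count table maps to a sample of the series (0 do not). Figures were drawn with matplotlib 3.10.9 in Python 3.11.15.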

Additional observations from a re-analysis of the deposited data

Results flagged for a closer look

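Single mild or control mice stood far from the others of their group in 36 of the genes followed. They were judged by the gap to the nearest value against the range of the group. The mild and the control group of each gene were judged, and chance marks about 1 in 20 groups. The advanced group, with 3 mice, was not judged in this way. Among mild mice, Mild_6825 was highest for Mup12 (10.8 CPM), Ghr (12510 CPM), Igf1 (2236 CPM), Ms4a7 (14.3 CPM), Ifit1 (17.9 CPM), Ifi44 (27.9 CPM), Cidea (12.9 CPM), Stard4 (40.1 CPM), Aass (462 CPM), Ebf1 (61.8 CPM) and Cbr3 (1.18 CPM), and lowest for Abcc2 (1846 CPM) and Col18a1 (273 CPM). Mild mouse Mild_6888 was highest for Col6a3 (76.5 CPM), Bicc1 (196.0 CPM) and Lrtm2 (0.121 CPM) and lowest for Fas (40.5 CPM), mouse Mild_6886 was lowest for Itgb6 (1.59 CPM) and highest for Clec4g (22.4 CPM), Hmgcs1 (74.8 CPM), C1qa (6.09 CPM) and Cd79b (1.52 CPM), and mouse Mild_6887 was highest for Cpt1a (760.0 CPM) and lowest for Dnajb9 (10.1 CPM). Among controls, mouse FPC_6953 was apart for Plat (0.361 CPM), Saa1 (3.39 CPM), Ankrd1 (0.938 CPM), Stat2 (203 CPM) and Elovl3 (104 CPM), mouse FPC_6952 for Vmn2r3 (0.118 CPM), Elf3 (0.434 CPM), Slc27a5 (144 CPM), Cry2 (119 CPM) and Slc4a2 (32.5 CPM), mouse FPC_6852 for Cacng3 (0.0358 CPM) and mouse FPC_6816 for Cyp2b10 (12.3 CPM).

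The advanced against mild change differed between the diets, by the test of the difference itself, for 29 of the genes followed, of which Cd34, Cx3cr1, Lypd6, Pex5l and Greb1l alone kept the call without mouse CDAHFD_Advanced_9845. On the log2 scale, FPC minus CDAHFD, it was higher under FPC for Kirrel3 (2.41), Igf2bp3 (3.60), Col6a3 (1.47), Ltbp2 (1.68), Loxl1 (1.60), Fbn1 (0.75), Adamtsl2 (2.07), Pdgfra (1.28), Pdgfrb (1.04), Cygb (1.49), Mmp2 (1.56), Cx3cr1 (1.89), Itgax (0.85), H2-Eb1 (1.01), Cd34 (1.92), Cxcl16 (1.38), Abcc4 (1.48), Lypd6 (2.35), Pex5l (2.30) and Greb1l (1.56). It was lower under FPC for Sult2a8 (-1.82), Sgcz (-4.58), Cd163 (-2.58), Trhde (-2.15), Clec4f (-1.99), Vsig4 (-1.63), Glul (-1.19), Cidec (-1.71) and Cidea (-6.38).

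Whole liver was also set against the hepatocyte nuclei of the same mice, in the test that treated libraries as independent. By it the change, whole liver minus hepatocyte nuclei, differed for Col15a1 (1.64), Serpine2 (2.63), Mrvi1 (1.82), Kcnq3 (2.68), Prrx1 (2.60), Greb1l (-1.68) and Lama4 (-1.47). All but Serpine2 lost the call without mouse Advanced_6880. The fit with the mouse as a block called 500 genes (3.49%), and further followed genes that it called are given in the Results.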

How the results depend on the processing

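The count of 3150 genes was 3105 with RLE scaling, 3556 with DESeq2, 3089 without a filter, 2772 with the stricter filter, 2830 in the 7 libraries alone and 3306 without scaling factors; with 1 mouse left out it ranged from 1956 to 3729, the genes higher from 1266 to 2145 and the genes lower from 690 to 1584. Without scaling factors 670 genes were lower. Of the 236 genes followed through the alternatives 187 were called; 140 of these kept the call under all 17, 47 lost it under at least 1, and 0 changed direction. Among genes not called, and in the medians of 4 lists, signs turned. Without scaling factors log2 fold changes became 0.0316 for Vwf, 0.0336 for Cyp2b9, 0.113 for Cyp7a1 and 0.046 for Slc4a2, and list medians 0.0208 for interferon genes, 0.0585 for the growth hormone axis and 0.129 for p53 targets, whose median was 0.0372 without a filter. With 1 mouse left out, log2 fold changes ranged from -0.658 to 0.121 for Acta2, -0.0613 to 0.474 for Lrat, -0.226 to 0.0422 for Vwf, -0.0424 to 0.421 for Alb, -1.13 to 1.31 for Igf1, -1.59 to 0.809 for Cyp2b9, -0.35 to 0.283 for Cyp7a1, -0.307 to 0.307 for Sqle, -0.609 to 0.654 for Saa1, -0.74 to 0.312 for Ifit1, -0.417 to 0.605 for Ifi44, -0.267 to 0.0479 for Cd79b, -0.133 to 0.91 for Mmp9 and -0.262 to 0.0516 for Slc4a2. List medians ranged from -0.223 to 0.234 for interferon genes, -0.344 to 0.0793 for periportal genes, -0.157 to 0.224 for the growth hormone axis and -0.0346 to 0.0854 for p53 targets. The diet difference, 161 genes, held 462 with DESeq2 and 5 to 212 with 1 mouse left out. The fraction difference, 26 genes, held 118 with DESeq2, 500 with the replicate block that pairs each mouse's libraries, and 1 to 26 with 1 mouse left out. The causes were not tested. With 3 and 4 mice, changes below 2-fold were often not recovered in simulated data, and genes under about 1 CPM rest on few counts.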
